A study of Mus musculus with 6 samples.

Results

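Voltage-gated sodium channel genes were followed in the hippocampus of 3 wild-type (WT) and 3 transgenic (TG) mice. The 7 genes were chosen by name. They are the pore-forming alpha subunit genes Scn1a, Scn2a, Scn3a and Scn8a and the auxiliary beta subunit genes Scn2b, Scn3b and Scn4b, out of 54532 genes with a value in each library. The rule used names and no measured value, but the members were chosen with earlier results of these data known. Each value is an FPKM, the read count of a gene divided by its length and by the size of the library.

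The TG mice were made by CRISPR/Cas9 knock-in, in which the epilepsy-associated G82R and L85P changes were placed in Slc1a2, the gene of the astrocytic glutamate transporter GLT-1. Eggs of C57BL/6N mice were injected and the founders were mated with C57BL/6 mice, and the WT mice were littermates without the variant. The change is carried by every cell, since no Cre or cell-type promoter was used. The sources used here do not give the zygosity, the age or the sex of the sequenced mice, or whether tissue was pooled. The libraries are named WT1 to WT3 and TG1 to TG3, and a p-value measures the spread between these libraries, which may be technical.

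Voltage-gated sodium channels open on depolarization and carry the inward current that starts and propagates the action potential in neurons. The alpha subunit alone forms the pore, the voltage sensors and the inactivation gate, whereas beta subunits are single-span membrane proteins with an immunoglobulin-like domain that shift gating, assist surface delivery and act in cell adhesion. In the hippocampus, Scn1a is best known for fast-spiking interneurons, Scn2a and Scn8a for the axon initial segment and axons of excitatory neurons, and Scn3a for the developing brain. Variants of these alpha genes cause epilepsies in humans, and sodium channels are the target of several anti-seizure drugs.

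In the GRCm38 annotation, 3 of the 4 alpha genes lay in 1 cluster on chromosome 2. Scn3a lay at 65457118 to 65567627 on the minus strand, Scn2a at 65620771 to 65767447 on the plus strand and Scn1a at 66270778 to 66440840 on the minus strand. The gaps were 53.1 kb between Scn3a and Scn2a and 503.3 kb between Scn2a and Scn1a. The edited gene Slc1a2 is on the same chromosome, 36.22 Mb from Scn1a. Scn8a lay alone on chromosome 15, at 100869858 to 101045938 on the plus strand. The beta genes were all on chromosome 9 and on the plus strand, with Scn3b at 40269217 to 40291618, Scn2b at 45117782 to 45130070 and Scn4b at 45138395 to 45154152. Scn2b and Scn4b were neighbours separated by 8.3 kb.

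The alpha genes are close in sequence, which matters for reads that must be given to 1 of them. Over the whole coding sequence, identity was 82.8% for Scn1a and Scn2a, 81.7% for Scn1a and Scn3a and 83.9% for Scn2a and Scn3a. Scn8a shared 74.7% to 75.1% with the others. The longest run shared without a difference was 188 bases, between Scn1a and Scn2a. Of all 50-base stretches of a gene's transcripts, 4.03% in Scn1a, 5.76% in Scn2a and 6.49% in Scn3a also occurred in another gene, so a small part of their reads is uncertain. That share was 0.0374% in Scn8a, 0.795% in Scn2b and 0 in Scn3b and Scn4b. The beta genes were 58.6% to 61.1% identical to each other and had no run over 13 bases in common.

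Reads on genes lay between 16081281 and 18751057 per library. The members had 410 to 7856 reads in a library, so counting error was smaller than the spread between libraries. Slc1a2 itself had an FPKM of 177 to 202 in WT and 207 to 222 in TG libraries, with no overlap, a log2 fold change of 0.16 and an adjusted p of 0.789 in limma. Its level does not check the labels, because the knock-in alters codons and the alleles cannot be read from gene values. The pan-neuronal markers summed to 1677 to 1845 FPKM in WT and 1591 to 1770 in TG libraries, and the hippocampal markers of granule cells and of pyramidal cells were well above 0 in all 6 libraries. TG1 and TG2 stood apart by the markers of the choroid plexus, the epithelium that makes cerebrospinal fluid. The 15 markers summed to 1348 FPKM in TG1 and 4218 in TG2, against 83.2 to 112 in WT libraries and 93.2 in TG3. WT3 and TG1 stood apart by gene length. WT3 had low values for long genes and high values for short genes, and TG1 the reverse.

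No sodium channel gene differed between WT and TG mice at an adjusted p under 0.05 in limma. The adjusted p of the members lay between 0.789 and 0.966, and 2 of the 20952 genes tested, 0.00955%, passed. At an unadjusted p under 0.05, 0 of the 7 members were higher and 0 were lower, where 3.13% of all genes tested were higher and 2.78% lower, and limma-voom on recovered reads also gave 0 and 0. The WT and TG values overlapped for 7 of 7 members, and 12.1% of all genes tested had groups that did not overlap. Over 7 genes, this count does not set the members apart from that share. The log2 fold changes (TG against WT) lay between -0.02 and 0.29, and 6 of 7 were above 0, beside 49.6% of all genes tested. Their median was 0.16, against a median of -0.00 over all genes tested. It was 0.06 without WT3, 0.07 without TG1 and 0.08 with a correction for gene length.

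**Figure D1:**
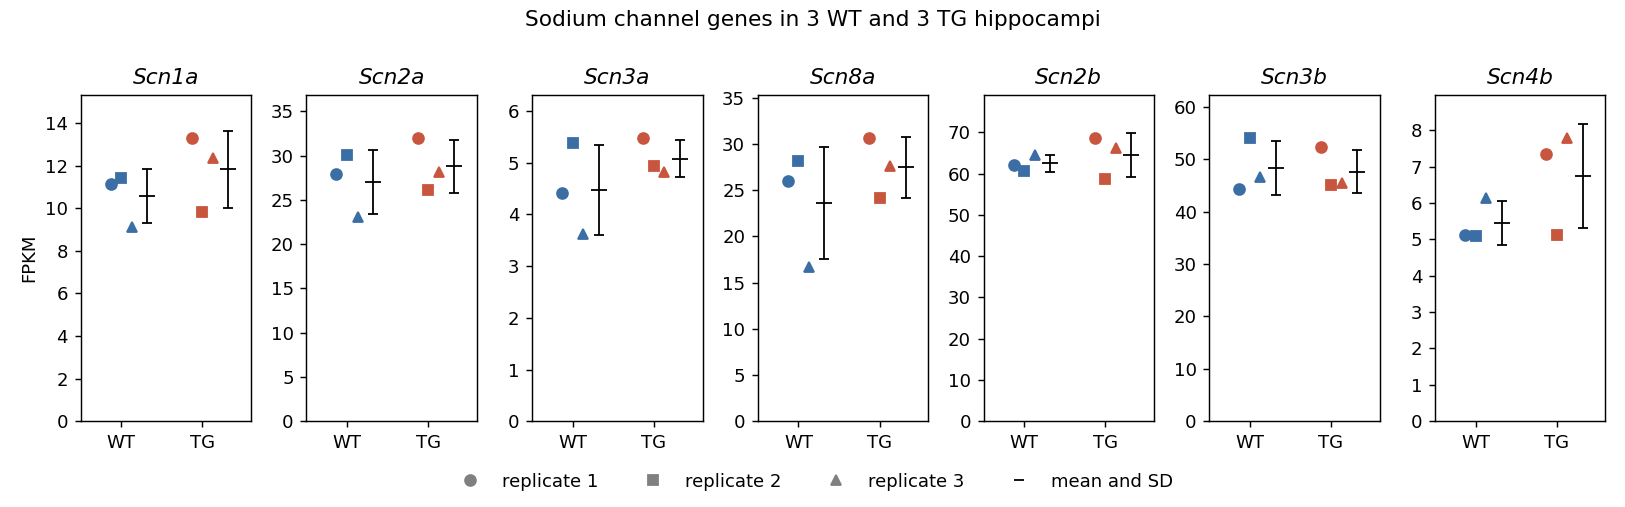
FPKM (vertical axis, linear, starting at 0, a scale of its own in each panel) of the 7 sodium channel genes in each WT (blue) and TG (red) library, with symbols for replicates 1 to 3 and bars for the mean and SD of 3 libraries. WT3 (blue triangle) is the lowest of the 6 libraries and TG1 (red circle) the highest in each of the 4 alpha genes on the left, and the groups overlap in all 7 panels.

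Scn2a encodes Nav1.2, the alpha subunit that dominates unmyelinated axons and the initial segment of young excitatory neurons. It was the most abundant alpha gene, with 27.9, 30.1 and 23.0 FPKM in WT (WT1 to WT3 in order, as for every gene here) and 32.0, 26.1 and 28.2 in TG libraries. TG1 was the highest library and WT3 the lowest, and 2 of the 3 TG values fell inside the WT range. The means were 27.0 ± 3.60 FPKM in WT and 28.8 ± 2.99 in TG (SD, n = 3 each). The log2 fold change was 0.10 ± 0.119 (SE), with a 95% interval from -0.18 to 0.38 and an adjusted p of 0.849.

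Scn8a encodes Nav1.6, the alpha subunit of the mature initial segment and of nodes of Ranvier. It had 26.0, 28.2 and 16.7 FPKM in the WT and 30.7, 24.1 and 27.6 in the TG libraries. WT3 lay far below the other 5 libraries, and 2 of the 3 TG values were within the WT range. The mean was 23.6 ± 6.08 FPKM in WT and 27.5 ± 3.29 in TG (SD, n = 3 each). Scn8a had the largest log2 fold change of the alpha genes, 0.24 ± 0.196 (SE), and the widest 95% interval, from -0.22 to 0.70, with an adjusted p of 0.789. On the linear scale this interval runs from 0.861-fold to 1.63-fold. Without WT3, the log2 fold change of Scn8a was 0.01.

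Scn1a encodes Nav1.1, which carries most of the sodium current of parvalbumin interneurons. Its values were 11.1, 11.4 and 9.10 FPKM in WT and 13.3, 9.80 and 12.3 in TG libraries. TG1 and TG3 lay above every WT library and TG2 between WT3 and the other WT libraries. The mean was 10.6 ± 1.27 FPKM in WT and 11.8 ± 1.82 in TG (SD, n = 3 each), and the log2 fold change was 0.16 ± 0.138 (SE; 95% interval -0.17 to 0.48; adjusted p = 0.789). It was 0.06 without WT3, 0.07 without TG1 and 0.29 without TG2 (unadjusted p = 0.0626, adjusted p = 0.798 in limma). The interneuron markers, which share the cell type, had a median log2 fold change of 0.01.

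Scn3a encodes Nav1.3, which is highest before birth and falls in the maturing rodent brain. It had the lowest level of the 7, with 4.42, 5.38 and 3.63 FPKM in WT and 5.49, 4.93 and 4.81 in TG libraries. The TG values were close to each other. TG1 lay just above the highest WT value, and TG2 and TG3 lay within the WT range. The mean was 4.48 ± 0.874 FPKM in WT and 5.08 ± 0.360 in TG (SD, n = 3 each), with a log2 fold change of 0.19 ± 0.147 (SE; 95% interval -0.15 to 0.54; adjusted p = 0.789). Without WT2 the log2 fold change rose to 0.33, with an unadjusted p of 0.0408 and an adjusted p of 0.636, and without WT3 it was 0.06.

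Scn2b encodes a beta subunit that is held to the alpha subunit by a disulfide bond. It was the most abundant member, with 62.2, 60.7 and 64.6 FPKM in WT and 68.7, 58.6 and 66.1 in TG libraries. The TG libraries reached both above and below the WT range. With means of 62.5 ± 1.97 FPKM in WT and 64.5 ± 5.26 in TG (SD, n = 3 each), its log2 fold change was 0.04 ± 0.0794 (SE; 95% interval -0.14 to 0.23; adjusted p = 0.900), the narrowest interval of the 7.

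Scn3b encodes a beta subunit that binds the alpha subunit without a covalent bond. Its FPKM was 44.2, 54.1 and 46.7 in WT and 52.4, 45.1 and 45.4 in TG libraries, and all 3 TG values lay within the WT range. The mean was 48.4 ± 5.15 FPKM in WT and 47.6 ± 4.11 in TG (SD, n = 3 each). Scn3b was the only member with a point estimate below 0, a log2 fold change of -0.02 ± 0.10 (SE; 95% interval -0.26 to 0.21; adjusted p = 0.966), and its sign turned to 0.03 when the libraries were scaled to the pan-neuronal markers.

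Scn4b encodes the other disulfide-linked beta subunit, known for resurgent sodium current in Purkinje cells and for its high level in striatal neurons. It had 5.11, 5.09 and 6.14 FPKM in WT and 7.34, 5.13 and 7.80 in TG libraries. TG1 and TG3 were above every WT library, and TG2 was level with WT1 and WT2. The mean was 5.45 ± 0.60 FPKM in WT and 6.76 ± 1.43 in TG (SD, n = 3 each). Its log2 fold change of 0.29 ± 0.168 (SE; 95% interval -0.11 to 0.68) was the largest of the 7, and its unadjusted p of 0.129 in limma the smallest, with an adjusted p of 0.789. Its side of the unadjusted threshold changed with the libraries and the scaling. With pan-neuronal scaling the log2 fold change was 0.33 (unadjusted p = 0.0469, adjusted p = 0.848 in limma). Without TG2 it was 0.47, with an unadjusted p of 0.00806 and an adjusted p of 0.798 in limma.

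Neighbouring brain regions rich in Scn4b were looked at by their markers. The 7 striatal markers summed to 26.8, 25.5 and 27.9 FPKM in WT and to 30.3, 36.0 and 27.6 in TG libraries. The TG2 sum was carried by Ppp1r1b, the DARPP-32 gene and the most abundant of the list, with 27.3 FPKM in TG2, 20.6 in TG1, 16.8 in TG3 and 15.7 to 18.4 in WT libraries. By the median deviation of the 7 markers from the WT mean, TG1 was the highest library (0.15 on the log2 scale) and TG2 the lowest (-0.13). The 5 thalamic markers summed to 12.4, 9.70 and 10.2 FPKM in WT and 11.5, 10.8 and 14.3 in TG libraries. TG3 was highest in both this sum and Scn4b. WT1 was next in this sum and had 5.11 FPKM of Scn4b. The choroid plexus sums were highest in TG1 and TG2, which had 7.34 and 5.13 FPKM of Scn4b. No marker of these 3 lists was at 0 in any library. In limma, 0 striatal and 0 thalamic markers passed the adjusted or the unadjusted threshold, and their median log2 fold changes were -0.05 and 0.22. The part of these lists in the level of Scn4b was not tested, and in bulk tissue fewer cells of a type and less RNA per cell cannot be told apart.

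**Figure D2:**
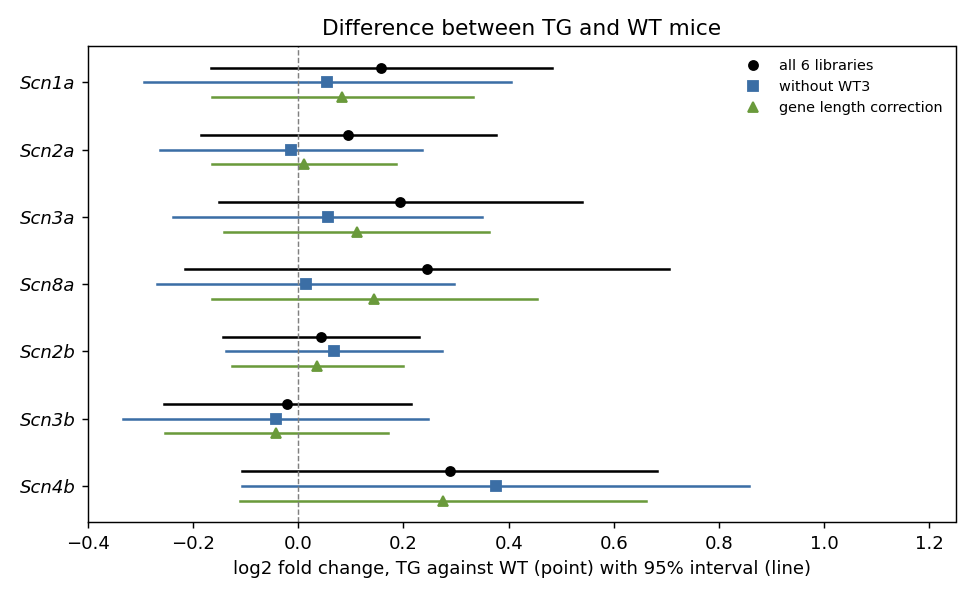
Log2 fold change of TG against WT (horizontal axis, limma on log2(FPKM + 0.1)) for the 7 sodium channel genes, with the 95% interval as a line, from all 6 libraries (black), without WT3 (blue) and after each library was corrected for gene length (green). The alpha genes move towards 0 without WT3, from 0.24 to 0.01 for Scn8a, whereas Scn4b moves from 0.29 to 0.38, and each interval includes 0.

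The order of the members by level was the same in nearly every library. From the highest mean down it was Scn2b (63.5 FPKM), Scn3b (48.0), Scn2a (27.9), Scn8a (25.6), Scn1a (11.2), Scn4b (6.10) and Scn3a (4.78). Scn2b was above Scn3b in 6 of 6 libraries, by 1.12 to 1.46 times, and the lowest Scn3b value was above the highest Scn2a value. Scn2a and Scn8a overlapped across libraries, although Scn2a was higher in 6 of 6 libraries, by 1.02 to 1.38 times. Scn8a and Scn1a did not overlap, with a ratio of 1.84 to 2.46. Scn4b and Scn3a overlapped and were in this order in 5 of 6 libraries.

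In levels across all genes tested, Scn2b stood above 96.8% and Scn3b above 95.4%, followed by Scn2a at 91.5% and Scn8a at 90.5%. Scn1a stood above 78.9%, Scn4b above 67.0% and Scn3a above 62.2%. Part of the order rests on the length that the reads were divided by. The deposited lengths ran from 4656 bases for Scn2b to 15766 bases for Scn8a, and for genes with several transcripts they exceeded the longest coding transcript by up to 1.42 times. Divided by the longest coding transcript, Scn3b rose to 63.1 FPKM beside 63.5 for Scn2b, and Scn3a at 6.23 FPKM passed Scn4b at 6.10. Scn2a (39.7), Scn8a (35.2) and Scn1a (14.9) kept their places. Gene values do not show which transcripts were used, so fetal and adult splice forms of the alpha genes were not separated.

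The make-up of the alpha subunits shows which channel a library's transcripts favour, and it does not depend on how libraries are scaled. Scn2a made up 41.4 ± 2.18% of the summed alpha FPKM in WT and 39.4 ± 0.801% in TG (SD, n = 3 each). Scn8a made up 35.6 ± 3.25% in WT and 37.5 ± 0.379% in TG, and Scn1a 16.2 ± 1.07% and 16.1 ± 0.947%. Scn3a contributed the rest, 6.81 ± 0.407% in WT and 6.97 ± 0.539% in TG. In exact two-sided permutation tests of 3 against 3 libraries, where the smallest possible p is 0.1, these shares gave p = 0.3, 0.5, 0.9 and 0.7, each with an adjusted p of 0.9 over the 4 shares.

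WT3 was the one library whose alpha make-up stood off from the rest. Scn8a made up 31.9% of the sum there and 37.1% to 37.8% in the other 5 libraries. Scn2a, conversely, made up 43.9% in WT3 and 38.6% to 40.2% in the others. The FPKM ratio of Scn8a to Scn2a was 0.933, 0.937 and 0.726 over WT1 to WT3 and 0.958, 0.922 and 0.979 over TG1 to TG3. On the log2 scale, TG exceeded WT by 0.15 (exact two-sided permutation p = 0.3, adjusted p = 0.6 over 4 ratios), and by 0.03 without WT3. The ratio of Scn1a to Scn2a lay between 0.375 and 0.438 in all 6 libraries (exact permutation p = 0.5, adjusted p = 0.667).

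Among the beta subunits, Scn2b made up 53.8 ± 2.78% of the summed FPKM of the 3 genes in WT and 54.3 ± 1.02% in TG (SD, n = 3 each). Scn3b made up 41.5 ± 3.13% in WT and 40.1 ± 1.80% in TG. The share of Scn4b was 4.58%, 4.25% and 5.23% over WT1 to WT3 and 5.72%, 4.71% and 6.54% over TG1 to TG3. TG1 and TG3 exceeded every WT library in it and TG2 fell within the WT range. For Scn4b the exact two-sided permutation p was 0.2 (adjusted p = 0.6 over 3 shares), and for Scn2b and Scn3b it was 0.9 and 0.7 (adjusted p = 0.9 for both). The ratio of Scn4b to Scn2b ran from 0.0822 to 0.0951 in WT and from 0.0875 to 0.118 in TG libraries (exact permutation p = 0.2, adjusted p = 0.6).

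**Figure D3:**
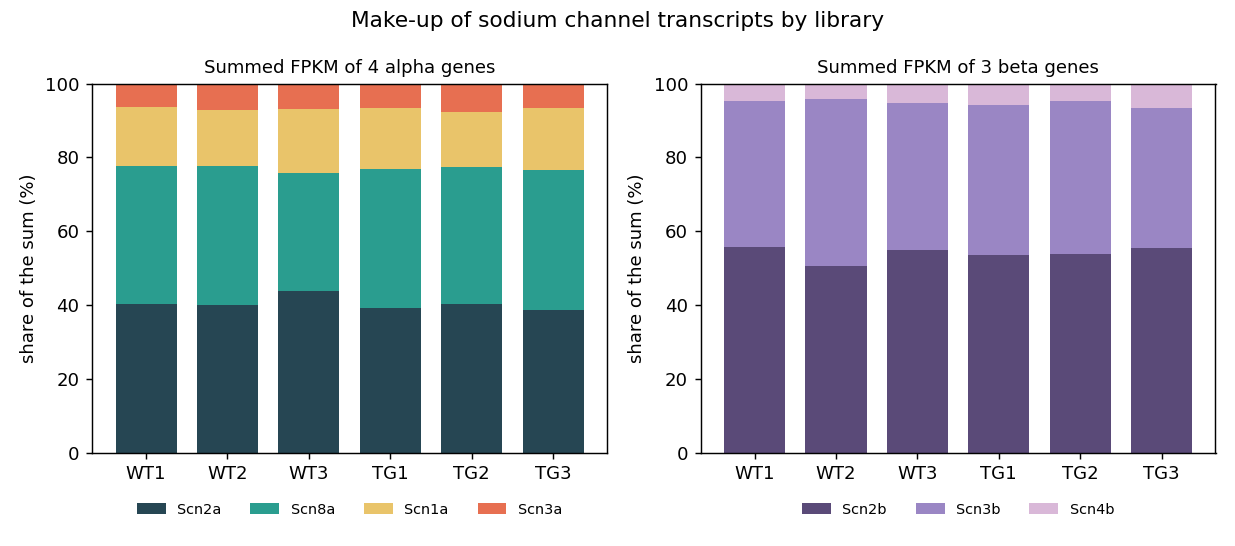
Share of each gene (vertical axis, percent) in the summed FPKM of the 4 alpha genes (left) and of the 3 beta genes (right) in each of the 6 libraries. Scn8a takes 31.9% of the alpha sum in WT3 and 37.1% to 37.8% elsewhere, and Scn4b takes 4.25% to 6.54% of the beta sum.

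The summed alpha level was 69.4, 75.1 and 52.5 FPKM over WT1 to WT3 and 81.5, 65.0 and 72.9 over TG1 to TG3 (exact two-sided permutation p = 0.5). WT3 was the lowest and TG1 the highest, and WT1 and WT2 lay inside the TG range. The summed level of the 3 beta genes was 111.5, 119.9 and 117.4 FPKM in WT and 128.4, 108.8 and 119.3 in TG (exact permutation p = 0.9). The ratio of the beta to the alpha sum was 2.24 in WT3 and 1.58 to 1.67 in the other 5 libraries (exact permutation p = 0.8 for TG against WT, adjusted p = 0.8).

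The low alpha values of WT3 went together with the length of the genes. Of 13325 genes whose mean FPKM reached 1, those over 8 kb (2221 genes) had a median deviation from the WT mean of -0.11 (log2) in WT3, between 0.04 and 0.07 in WT1, WT2, TG2 and TG3, and 0.12 in TG1. Genes of up to 1 kb (1143 genes) showed the opposite, with 0.13 in WT3 and -0.26 in TG1. WT3 was the lowest of the 6 libraries for 59.6% of the genes over 8 kb and for 27.0% of all 13325 genes. The TG against WT point estimate was above 0 for 72.5% of the genes over 8 kb. The 4 alpha genes, 11146 to 15766 bases long, had a median deviation of -0.25 in WT3 and 0.32 in TG1, larger in size than the median of the long genes. The 3 beta genes, 4656 to 5461 bases long, had 0.05 in WT3 and 0.14 in TG1.

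After each library was corrected for gene length, the log2 fold changes were 0.08 for Scn1a, 0.01 for Scn2a, 0.11 for Scn3a and 0.14 for Scn8a. Those of Scn2b, Scn3b and Scn4b were 0.04, -0.04 and 0.27, close to the values without correction. The corrected log2 value of Scn8a was still lowest in WT3, at 4.29, against 4.59 in TG2 to 4.84 in TG1 for the others. WT3 also stayed the lowest library for Scn2a and Scn3a, whereas TG2 was the lowest for Scn1a. Without WT3 the log2 fold changes of Scn1a, Scn2a, Scn3a and Scn8a were 0.06, -0.01, 0.06 and 0.01, and 5 of 7 members had a point estimate above 0. What made WT3 low and TG1 high for long genes was not tested.

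**Figure D4:**
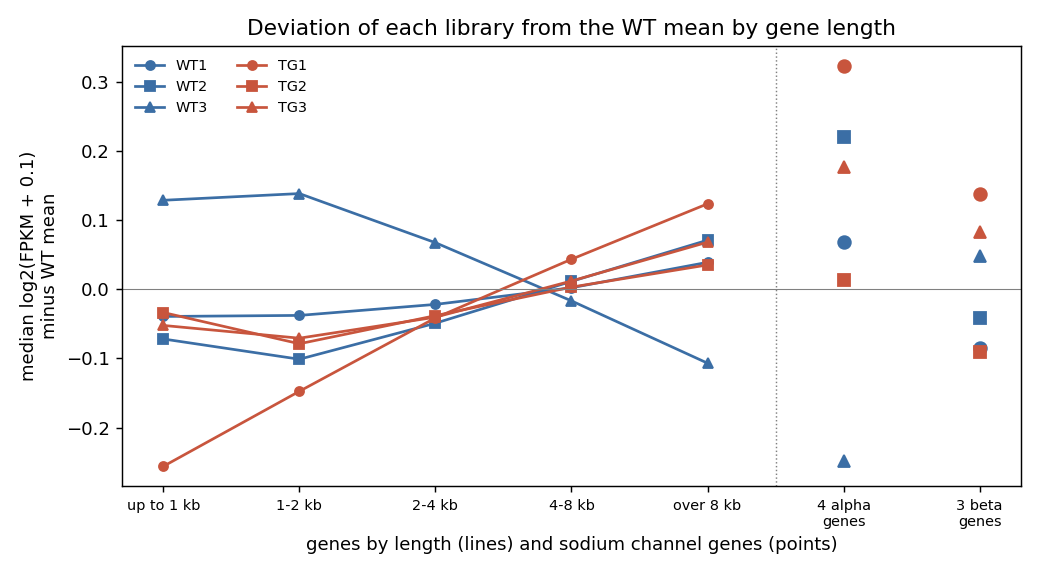
Median deviation of each library from the WT mean (vertical axis, log2(FPKM + 0.1)) for genes whose mean FPKM reached 1, grouped by gene length (lines), and for the 4 alpha and 3 beta sodium channel genes (points), with WT libraries in blue and TG in red. WT3 falls from 0.13 for genes up to 1 kb to -0.11 for genes over 8 kb and lies at -0.25 for the alpha genes, while TG1 climbs from -0.26 to 0.12 and lies at 0.32.

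Of the 14 sodium channel alpha and beta genes in the table, 7 were not members, and of the 4 of these that were tested 0 passed the adjusted or the unadjusted threshold in limma. Scn7a, which encodes a sodium-sensing channel of glia, had 0.460 to 1.02 FPKM over the 6 libraries, with groups that overlapped and a log2 fold change of -0.16 (adjusted p = 0.894). Scn9a, the gene of a channel of sensory neurons and the next gene after Scn1a on chromosome 2, had 0.318, 0.339 and 0.234 FPKM in WT and 0.228, 0.179 and 0.191 in TG libraries. All WT values of Scn9a were above the TG values, from 41 to 75 reads a library, with a log2 fold change of -0.40 ± 0.30 (SE) and an adjusted p of 0.789. Scn4a, Scn10a and Scn11a had 0 to 4 reads in a library and were not tested.

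Sodium channels are clustered at the initial segment and nodes by a scaffold of ankyrin-G and spectrins. Of its 12 genes, 0 passed the adjusted or the unadjusted threshold in limma in either direction, and 12 of 12 had a point estimate above 0 (11 with upper quartile scaling or with scaling to all reads on genes), with a median log2 fold change of 0.08. WT3 was the lowest library for 10 of the 12. Without WT3, 8 of 12 were above 0 and the median was 0.01, and with the gene length correction 7 of 12 were above 0. Sptan1, the alpha-II spectrin gene and the most abundant of the list, had 78.3 to 92.9 FPKM in WT and 87.6 to 103 in TG libraries. Ank3, the ankyrin-G gene, had 11.02, 11.6 and 7.11 FPKM in WT and 12.7, 10.1 and 11.8 in TG libraries, with WT3 low as for Scn8a. Its log2 fold change was 0.24 ± 0.191 (SE; adjusted p = 0.789).

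Intracellular fibroblast growth factor homologues bind the tail of the alpha subunit and set its inactivation. Of the 4 genes, 0 passed either threshold, and the median log2 fold change was -0.04. Fgf13 was the most abundant with 53.96 to 68.0 FPKM over the 6 libraries and a log2 fold change of -0.01. Fgf11 and Fgf14 had 0.07 and -0.08, with groups that overlapped. The 16 genes of other proteins that bind or modify the channels, such as calmodulin, kinases and ubiquitin ligases, also held 0 past either threshold, with a median of -0.02. Calm2, a calmodulin gene, was the most abundant with 955 to 1263 FPKM in WT and 803 to 979 in TG libraries (log2 fold change -0.23, adjusted p = 0.789).

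Beta subunits are cut by beta-secretase and gamma-secretase, and the 7 genes of these enzymes had 0 past either threshold and a median log2 fold change of 0.03. Psenen, a gamma-secretase subunit gene, had 24.5 to 33.3 FPKM in WT and 22.4 to 24.4 in TG libraries, with groups just apart and WT3 the highest library (log2 fold change -0.25, adjusted p = 0.788). Of 11 genes for regulators of neuronal RNA and splicing, 0 passed either threshold, with a median of 0.06. Rbfox1, the most abundant, had a log2 fold change of 0.01. Srrm4, a neuronal splicing factor gene, had 4.09 to 5.91 FPKM in WT and 6.01 to 6.50 in TG libraries, with WT3 the lowest (log2 fold change 0.28, adjusted p = 0.789). Ptbp2, another splicing regulator gene, had a log2 fold change of -0.09.

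Markers of the cell types of the tissue were read in the same fit. Of 12 pan-neuronal markers, 0 passed the adjusted or the unadjusted threshold in limma, and their median log2 fold change was -0.01. The 8 interneuron markers (median 0.01) and the 6 pyramidal cell markers (median -0.01) also held 0. Of the 7 granule cell markers, 2 were lower at an unadjusted p under 0.05 in limma. Over all genes tested, 2.78% were lower and 3.13% higher at this threshold. The granule cell median was -0.16, and C1ql2, the most abundant, had 52.6 to 66.8 FPKM in WT and 48.0 to 55.6 in TG libraries. No marker of any cell type list passed the adjusted threshold. Oligodendrocyte markers had a median of -0.30, with 1 of 7 lower at an unadjusted p under 0.05 in limma. Their median deviation from the WT mean was -0.66 in TG1, -0.21 in WT3, -0.19 in TG2 and -0.07 in TG3. It was 0.06 in WT2 and 0.16 in WT1. Choroid plexus markers had a median of 2.77, with 10 of 15 higher at an unadjusted p under 0.05, and a median deviation from the WT mean of 4.90 in TG2, 3.27 in TG1 and 0.06 in TG3. The medians of the 7 astrocyte, 5 oligodendrocyte precursor, 6 microglial and 5 endothelial markers lay between -0.01 and 0.12, with 1 precursor marker lower and 1 microglial and 1 endothelial marker higher at an unadjusted p under 0.05.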

How the data were processed

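RNA of the hippocampus of 3 WT and 3 TG mice was sequenced by the authors, who counted reads per gene with HTSeq and deposited FPKM computed from the read count and gene length, with 1 column per library. The processing notes name GRCm38. The aligner and the use of strand are not given in the sources used here. The labels name RNeasy and SMARTer kits, whereas the methods name Trizol and NEBNext Ultra. Without strand, reads of overlapping genes on the opposite strand cannot be told apart. Scn1a, Scn3a, Scn2b and Scn3b each overlap 1 such gene, which had at most 0.238 FPKM in any library.

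Of 54532 genes, 20952 reached a mean FPKM of 0.1 and entered the test, all 7 members among them. WT and TG were compared with limma (version 3.58.1, R 4.3.3). The deposited values were put on a log2 scale as log2(FPKM + 0.1) and fitted with lmFit and eBayes, with a variance trend, no covariate and Benjamini-Hochberg adjustment over all genes tested (threshold 0.05). Fold changes on this scale slightly understate those of low genes. Shares and ratios were compared by two-sided exact permutation tests over libraries. FPKM times gene length gave whole reads for 100% of values (tolerance 0.05 reads). These reads entered only voom and a rescaling as alternatives. On reads without molecular identifiers, read numbers describe counting error only. The fit was tested on simulated data with known changes.

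Coordinates and transcript sequences for the identity values came from GENCODE M21, where 54409 of the 54532 gene identifiers were found. Analyses ran in Python 3.11.15 (numpy 2.4.6, scipy 1.17.1, matplotlib 3.10.9, biopython 1.88). The members, lists and tests were chosen with earlier results of these data known. Named genes were all 7 members, the most abundant gene and the gene with the smallest p on each side of each channel-related list, other Scn genes that were tested, and, of the marker lists, the most abundant gene, which is given only where a value turned on it. A few genes and sequences that fall under this rule are left out of the report. Alternatives covered pseudocount, filter, scaling, variance model, voom, left-out libraries and a replicate block. A gene length correction (lowess, span 0.3) and division by the longest coding transcript were chosen after seeing the data.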

Additional observations from a re-analysis of the deposited data

How the results depend on the processing

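Each member's log2 fold change, the members' median and the counts of members past a threshold were computed under 18 alternatives, and each share and the ratio of Scn8a to Scn2a under 9. No member had an adjusted p under 0.05 in any of them. The number of members higher in TG at an unadjusted p under 0.05 was 0 and became 1, Scn4b, with pan-neuronal scaling (log2 fold change 0.33, adjusted p = 0.848) and without TG1 and TG2, the libraries with choroid plexus markers (0.52, adjusted p = 0.976), where the lone TG3 was assumed to vary like the others. Leaving out 1 library at a time, this number ran from 0 to 1, with Scn3a without WT2 and Scn4b without TG2. Scn3b turned from -0.02 to 0.027 with pan-neuronal scaling, and its sign also turned on leaving out WT2, TG2 or TG3, with a range of -0.091 to 0.063. Scn2a ranged from -0.014 (without WT3) to 0.18 and Scn2b from -0.0044 (without TG1) to 0.11. Scn8a ranged from 0.01 (without WT3) to 0.39 (without WT2). Scn1a ranged from 0.06 (without WT3) to 0.29 (without TG2), and the members' median from 0.06 (without WT3) to 0.22 (without WT2). Some differences in shares (TG minus WT, percentage points) turned sign: Scn2b from 0.489 to -1.10 and Scn3b from -1.46 to 0.353 without WT2, Scn3a from 0.161 to -0.148 without TG2, and Scn1a from -0.0833 to 0.488 without WT3. Smaller turns came without TG3 for Scn2b (-0.0905), without WT1 for Scn3a (-0.0636) and without TG2 for Scn1a (0.435). The causes were not tested.

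The values did not settle whether the replicate numbers pair the libraries, since all correlations were near 0. Same-numbered libraries correlated by 0.01, 0.05 and 0.03 over 13325 genes, and the other combinations by -0.05 to 0.02. WT2 correlated most with TG2 and WT3 most with TG3, whereas WT1 also correlated most with TG3 (0.02). With the replicate number as a block, 0 members passed either threshold, and Scn4b had a log2 fold change of 0.29 with an adjusted p of 0.785. The block changed no call, and in this balanced design it leaves each difference as it was.

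With 3 libraries a group, the 95% intervals of the members were wide. The narrowest, for Scn2b, ran from -0.14 to 0.23 and the widest, for Scn8a, from -0.22 to 0.70 on the log2 scale.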

Other observations

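For each member, the gene whose values were most alike over the 6 libraries was taken from 7732 genes whose mean FPKM reached 5, by the mean absolute difference of log2 values centred on each gene's mean. For Scn8a this was Ank3, with a difference of 0.0206 where the median over candidates was 0.237. For Scn1a it was Slc24a2 (0.0280), for Scn2a Ints1 (0.0185) and for Scn3a Tnrc6c (0.0255). Scn2b was most like Btbd6 (0.0105), Scn3b most like Mical2 (0.0220) and Scn4b most like Kcnab3 (0.0683). Scn4b had the most distant nearest gene of the 7. Such a nearest gene over 6 libraries is a description, since so many genes were compared, and they share library, depth and length effects.

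Among the members themselves, the closest were Scn1a and Scn2a, with a mean absolute difference of 0.0617, and Scn2a and Scn3a, with 0.0704. The third pair of the chromosome 2 genes, Scn1a and Scn3a, differed by 0.124, more than Scn2b and Scn3b (0.0941), Scn2a and Scn3b (0.0980) or Scn1a and Scn8a (0.106). The difference of Scn4b from Scn8a, 0.283, was the largest of all pairs. The neighbouring genes Scn2b and Scn4b differed by 0.161.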
